A study of Danio rerio with 8 samples.

Results

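The genes described here are 9 redox defence genes, txnb, hmox1a, gclc, gclm, nqo1, prdx1, srxn1, sqstm1 and gsr, out of 31901 genes in a table of RNA-seq counts. They were chosen by a list that names the difference of txnb between the lesioned and unlesioned libraries, so the members were selected on measured values of the same contrast. Their values are therefore given as a description, with standard errors and without a p-value. The RNA came from cells sorted for GFP from zebrafish larvae with the transgenes BAC(pdgfrb:Gal4ff)ncv24 and UAS:GFP, aged 4 days after fertilization. In this line the promoter of pdgfrb, the gene of a receptor for platelet-derived growth factor, drives the transcription factor Gal4ff, which switches on GFP. The labels call the sorted cells myoseptal and perivascular, so each library is a mixture of connective tissue cells from between the muscle segments and cells from around vessels. There were 4 libraries from larvae whose spinal cord had been mechanically lesioned 1 day earlier, and 4 from larvae without a lesion. Both groups carried the same transgenes and were dissociated with trypsin before sorting. The number of larvae behind each library and the independence of the clutches are not given in the labels. The p-values of other genes therefore cover the spread among these 8 libraries, part of which may be technical.

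Cells remove hydrogen peroxide and oxidized protein thiols through a pair of connected systems. In the thioredoxin system, thioredoxin passes electrons to oxidized proteins, among them peroxiredoxins, and is recharged by thioredoxin reductase from NADPH. In the glutathione system, glutathione made from glutamate, cysteine and glycine serves peroxidases and transferases and is recharged by glutathione reductase, also from NADPH. The transcription factor Nrf2 is held at a low level by Keap1 and, in vertebrates exposed to oxidants or electrophiles, accumulates and activates genes of both systems together with haem oxygenase, quinone reductase and the adaptor Sqstm1. The comparison asks whether txnb, a thioredoxin gene, differed alone or together with the other genes of such a programme.

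Total counts lay between 19552807 and 25358885 per library. Levels are CPM, that is, counts relative to the library size after scaling by TMM factors, and levels of different genes are compared only per kilobase of exon. The reporter's own gene pdgfrb was present in every library, with 213 ± 27.4 CPM without the lesion and 195 ± 68.5 CPM with it (SD, n = 4 each). All 16 markers of fibroblasts and mural cells passed the filter on low counts. Of the 16, 10 had a negative log2 fold change, and the median was -0.44. Among 15759 genes tested in edgeR with Benjamini-Hochberg adjustment, 3 were called higher and 0 lower in the lesioned group at an adjusted p under 0.05. At an unadjusted p under 0.05 there were 957 higher and 864 lower genes, 6.07% and 5.48% of those tested, and DESeq2 called 406 higher and 272 lower, 2.2% and 1.47% of its 18494 genes with an adjusted p. Over all genes tested the log2 fold change, lesioned over unlesioned, had a median of -0.04 and quartiles of -0.53 and 0.46. Libraries 1 and 2 of both groups stood apart from libraries 3 and 4, with mitochondrial shares of counts between 8.91% and 10.2% against 13.8% to 16.8%, and with 0 to 3 against 64 to 158 counts of synthetic spike-in RNA. Genes with at least 1 count numbered 19343 to 20125 in the unlesioned and 20543 to 21548 in the lesioned libraries (exact two-sided permutation p = 0.0286, the smallest it can give, and adjusted p = 0.143 over 10 measures).

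The thioredoxin gene txnb (ENSDARG00000044125) is a minus-strand gene of chromosome 7 (24357231 to 24364826 on GRCz11) and shares no exon bases with another annotated gene. In unlesioned libraries 1 to 4 it had 88.1, 114, 209 and 79.1 CPM. In lesioned libraries 1 to 4 it had 773, 653, 891 and 1571 CPM. Every lesioned library thus lay above every unlesioned library, with lesioned 4 the highest and unlesioned 3 the highest of its group. The means were 123 ± 59.6 and 972 ± 411 CPM (SD, n = 4 per group), a ratio of 7.93 and a log2 fold change of 2.99 ± 0.40 (SE). Behind these values stood 1684 to 4346 reads per unlesioned library and 15917 to 36336 reads per lesioned library. The log2 fold change was 2.82 in libraries 1 and 2 alone and 3.17 in libraries 3 and 4 alone. It was 2.66 without lesioned 4 and 3.37 without unlesioned 3. By log2 fold change txnb stood at position 105 from the top among all genes tested, and at position 18 among the 8062 genes with a mean of at least 10 CPM. Beside txnb, 3 of the 16 markers of fibroblasts and mural cells were lower in the lesioned libraries without overlap, where 3.91% of all genes were. These 3 mark mural cells, the contractile cells around vessels. Without and with the lesion rgs5a had 313 to 816 and 157 to 288 CPM, and tagln 1123 to 3479 and 501 to 1019 CPM. The last, ndufa4l2a, had 4.28 to 15.98 and 0.0452 to 2.09 CPM (adjusted p = 0.209, 0.229 and 0.234 in edgeR, in this order). Another of the 16, scxa, was higher without overlap, where 5.32% of all genes were. It had 22.1 to 40.2 and 40.9 to 82.1 CPM (adjusted p = 0.317 in edgeR). By sign alone, 10 of the 16 were lower and 6 higher. The smooth muscle actin gene acta2 had 9028 ± 4234 and 3623 ± 1131 CPM (adjusted p = 0.212 in edgeR), while the collagen gene col1a2 had 3660 ± 751 and 4444 ± 1517 CPM (adjusted p = 0.797 in edgeR). Lower means were not limited to mural genes. Named after their values were seen, tnmd averaged 642 and 187 CPM, lum 984 and 410 CPM, and col6a1 1350 and 843 CPM. Their adjusted p values in edgeR were 0.211, 0.351 and 0.433, in this order. The mural gene cspg4 averaged 5.05 and 5.99 CPM (adjusted p = 0.933 in edgeR). The part of these marker levels in the difference of txnb was not tested. Since bulk libraries were sequenced, more cells with txnb RNA and more txnb RNA per cell cannot be told apart, and the same holds for every gene given here.

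**Figure D1:**
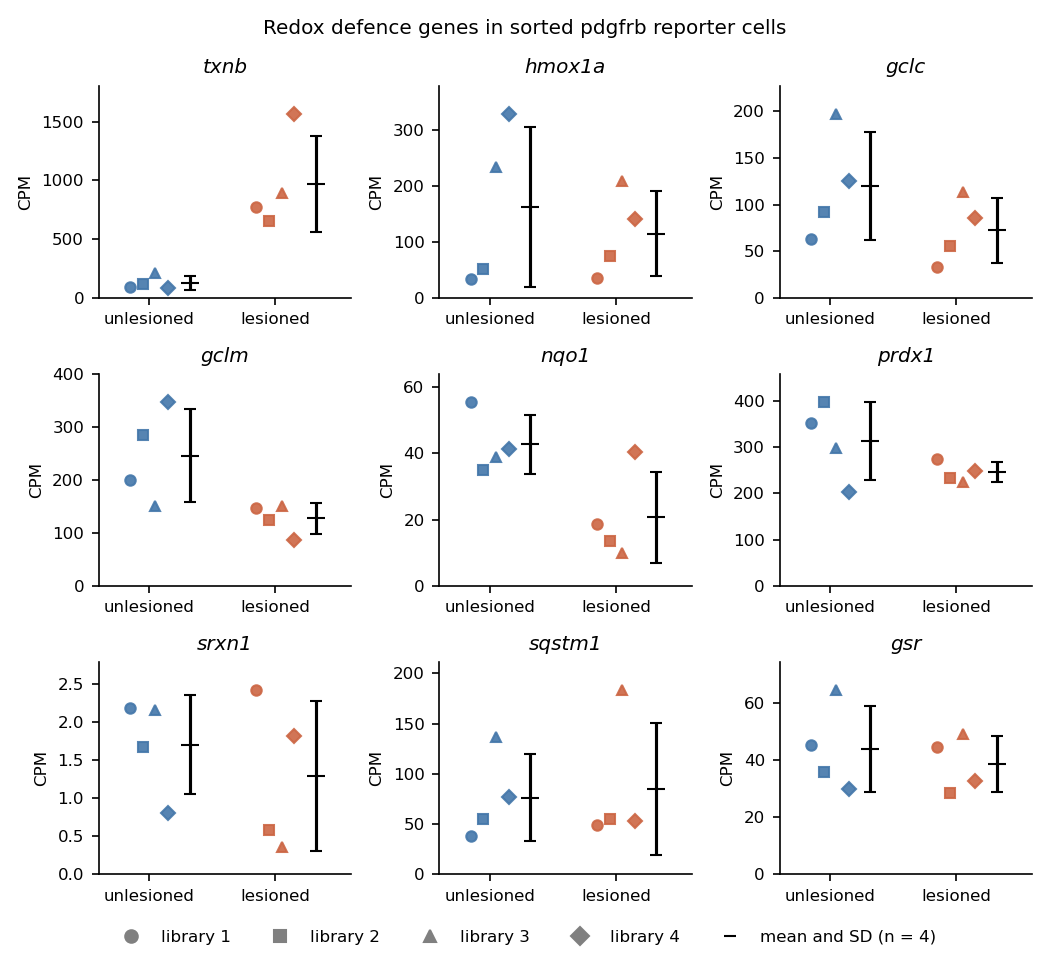
CPM (vertical axes, linear, from 0) of the 9 redox defence genes in unlesioned and lesioned libraries, with a marker shape for each library number and the mean and SD of 4 libraries beside them. The groups do not overlap for txnb, at 79.1 to 209 CPM in unlesioned and 653 to 1571 CPM in lesioned libraries, and they overlap for the other 8 genes.

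A paralog of txnb was measured in the same libraries. This gene, txna (ENSDARG00000031435, chromosome 1 from 40263671 to 40270561), also a thioredoxin, was added after its values were seen. Its levels were 588, 611, 503 and 484 CPM in unlesioned 1 to 4. They were 811, 742, 733 and 837 CPM in lesioned 1 to 4, so that the groups did not overlap for txna either. Of all genes tested, 5.32% were higher without overlap. The values of txna are a description, given without a p-value. The log2 fold change of txna was 0.51 ± 0.18 (SE), with means of 547 ± 62.3 and 781 ± 51.1 CPM (SD, n = 4 each).

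Per kilobase of exon, txnb was the less abundant RNA of the pair in every unlesioned library. Its level relative to txna was 0.104, 0.129, 0.288 and 0.113 in unlesioned 1 to 4. The same ratio was 0.662, 0.610, 0.843 and 1.30 in lesioned 1 to 4, and only in lesioned 4 did txnb exceed txna. As a share of the sum of both, txnb made up 13.4 ± 6.07% without and 45.0 ± 8.40% with the lesion (SD, n = 4 per group). The sum itself was 580 ± 59.6 CPM per kb without and 1337 ± 297 CPM per kb with the lesion.

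**Figure D2:**
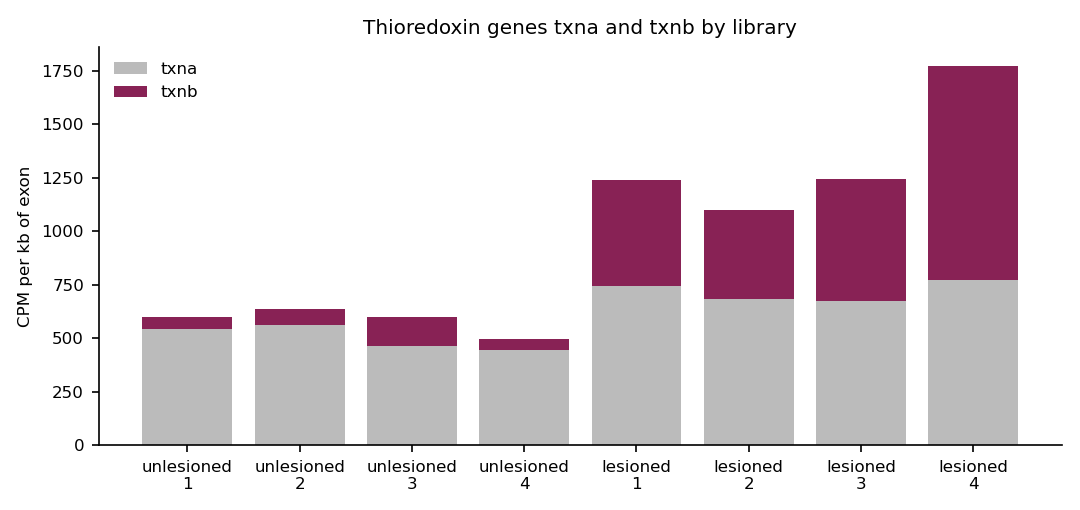
Stacked levels of txna (grey) and txnb (purple) in CPM per kilobase of exon in each of the 8 libraries. The share of txnb in the stack is 9.43% to 22.4% in unlesioned and 37.9% to 56.6% in lesioned libraries.

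Among the partners of thioredoxin, prdx1 encodes a peroxiredoxin, a thiol peroxidase that thioredoxin reduces. The gene (ENSDARG00000058734, chromosome 2 from 6104378 to 6115688) had 353, 399, 299 and 202 CPM in unlesioned 1 to 4. In lesioned 1 to 4 it had 275, 234, 226 and 248 CPM, all of which lie within the unlesioned range. Its means were 313 ± 84.4 and 246 ± 21.8 CPM (SD, n = 4 each), and its log2 fold change was -0.35 ± 0.23 (SE). Libraries 1 and 2 alone gave -0.56, and libraries 3 and 4 alone gave -0.02.

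Sulfiredoxin, the product of srxn1 (ENSDARG00000079160, chromosome 8 from 28547687 to 28549133), repairs overoxidized peroxiredoxins and is a known Nrf2 target in mammals. It was scarce in both groups, with 2.188, 1.68, 2.17 and 0.80 CPM in unlesioned 1 to 4. In lesioned 1 to 4 it had 2.43, 0.57, 0.36 and 1.82 CPM, which rest on 57, 14, 8 and 42 reads. The highest value and the lowest pair of values both fell in the lesioned group, and the log2 fold change of -0.40 ± 0.92 (SE) has an error larger than itself.

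Glutathione synthesis starts with glutamate-cysteine ligase, whose catalytic subunit is encoded by gclc and whose modifier subunit by gclm. The catalytic subunit gene gclc (ENSDARG00000013095, chromosome 13 from 2357637 to 2392664) had 63.0, 92.1, 198 and 125 CPM in unlesioned 1 to 4. In lesioned 1 to 4 it had 33.3, 55.9, 114 and 85.8 CPM. At each library number the lesioned value was below the unlesioned one, though the labels state no pairing, and the groups as a whole overlapped. Its log2 fold change was -0.73 ± 0.43 (SE), with -0.80 from libraries 1 and 2 alone and -0.63 from libraries 3 and 4 alone.

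The modifier subunit gene gclm (ENSDARG00000018953, chromosome 8 from 15269423 to 15277252) had 200, 285, 151 and 348 CPM in unlesioned 1 to 4. In lesioned 1 to 4 it had 148, 125, 151 and 86.8 CPM, so that unlesioned 3, at the same level as lesioned 3, was the single point of overlap. The means were 246 ± 87.7 and 128 ± 29.7 CPM (SD, n = 4 each), and the log2 fold change of -0.94 ± 0.30 (SE) was opposite in sign to that of txnb. Libraries 1 and 2 alone gave -0.83, and libraries 3 and 4 alone gave -1.02. Glutathione reductase, which returns oxidized glutathione to its reduced form, is encoded by gsr (ENSDARG00000019236, chromosome 14 from 38852969 to 38873145). It had 45.3, 35.7, 64.5 and 29.9 CPM in unlesioned 1 to 4, and 44.6, 28.4, 49.1 and 32.6 CPM in lesioned 1 to 4. The groups overlapped over most of their range, with a log2 fold change of -0.18 ± 0.31 (SE).

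The quinone reductase gene nqo1, whose product removes quinones by a reduction that avoids radicals, is a widely used readout of Nrf2 activity. It lies on chromosome 7 from 56703254 to 56722320 (ENSDARG00000010250). Its levels were 55.6, 34.99, 38.8 and 41.4 CPM in unlesioned 1 to 4. They were 18.6, 13.6, 9.94 and 40.5 CPM in lesioned 1 to 4. Lesioned 4 lay inside the unlesioned range and the other lesioned libraries below it. The means were 42.7 ± 8.99 and 20.6 ± 13.7 CPM (SD, n = 4 per group). The log2 fold change was -1.05 ± 0.43 (SE), with -1.49 from libraries 1 and 2 alone and -0.59 from libraries 3 and 4 alone. Without lesioned 4 it was -1.60, the lowest value in any setting tried.

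Haem oxygenase, which splits haem into biliverdin, iron and carbon monoxide, is encoded by hmox1a (ENSDARG00000027529, chromosome 3 from 26011482 to 26017831). It had 33.96, 51.9, 234 and 329 CPM in unlesioned 1 to 4, and 35.9, 73.5, 209 and 140 CPM in lesioned 1 to 4. The values separated by library number and not by lesion, since libraries 3 and 4 of both groups lay above libraries 1 and 2 of both groups. Of the 9 genes hmox1a alone did so, against 3.56% of all genes tested. Its log2 fold change was -0.50 ± 0.73 (SE) over all libraries, 0.35 in libraries 1 and 2 and -0.64 in libraries 3 and 4, and it turned to 0.10 without unlesioned 4. The mitochondrial share and the spike-in counts were likewise higher in libraries 3 and 4 than in libraries 1 and 2 of both groups. Within the unlesioned group the order differed, with a mitochondrial share of 16.5% in library 3 and 13.8% in library 4. The part of these measures in the levels of hmox1a was not tested.

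The last of the 9, sqstm1 (ENSDARG00000075014, chromosome 14 from 16765992 to 16771405), encodes p62, an autophagy receptor that also binds Keap1. Its exons share 62.0% of their bases with the gene mrnip, and the reads were counted without regard to strand. Reads of the shared bases may therefore be mixed between these genes or left uncounted. Its level per kilobase, taken over the full exon length, has the same limit. Unlesioned 1 to 4 had 37.4, 54.4, 137 and 76.3 CPM, and lesioned 1 to 4 had 49.0, 54.3, 183 and 52.7 CPM. Library 3 was the highest of both groups. The log2 fold change was 0.16 ± 0.52 (SE), and it turned to -0.56 without lesioned 3 and to -0.06 without unlesioned 1.

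All 9 genes passed the filter on low counts, and 0 of the 9 were called in edgeR at an adjusted p under 0.05, where 0.019% of all genes were. In DESeq2 and in limma voom 1 of the 9, txnb, was called. The contrast chose txnb, so nothing is read from these counts. The lesioned libraries lay above all unlesioned libraries for 1 of the 9 genes, txnb, where 5.32% of all genes tested did so, and below all of them for 0 of the 9, where 3.91% did. Of the 8 genes other than txnb, 7 had a negative and 1 a positive log2 fold change, under TMM factors, RLE factors and library size alone. Their median was -0.45, beside -0.04 over all genes tested, and the pair was -0.27 and 0.12 where library size alone scaled the counts. In each of the 18 alternative settings the median of the 8 genes stayed negative, between -0.69 without lesioned 3 and -0.27.

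**Figure D3:**
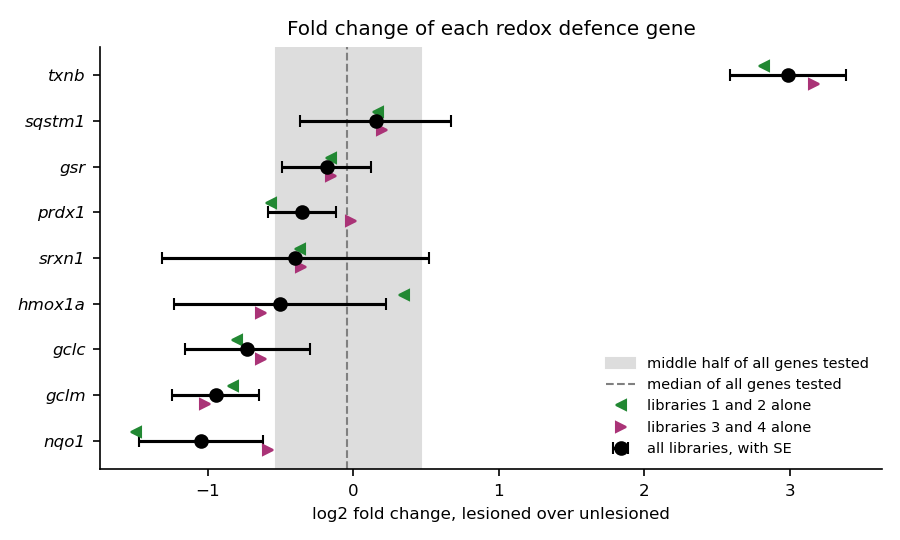
Log2 fold change of lesioned over unlesioned (horizontal axis) for the 9 genes, with the SE of the edgeR fit over 4 against 4 libraries (black), and the values from libraries 1 and 2 alone (green) and 3 and 4 alone (purple). The grey band holds the middle 50% of all genes tested; txnb at 2.99 lies far to its right, and gclc, gclm and nqo1, between -1.05 and -0.73, lie to its left.

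Per kilobase of exon, the order of the 9 genes differed between the groups at its top. In the unlesioned group gclm led with 122 ± 43.5 CPM per kb (SD, n = 4). It was followed by hmox1a (93.3 ± 82.4), prdx1 (90.0 ± 24.3) and txnb (78.2 ± 38.0), and these 4 levels did not differ beyond their spread. Lower came gclc at 39.2, sqstm1 at 35.8, nqo1 at 24.4, gsr at 14.8 and srxn1 at 3.44 CPM per kb. In the lesioned group txnb led with 620 ± 262 CPM per kb, and its lowest library (416) lay above the highest value of any of the other 8 genes (120, hmox1a). Next were prdx1 (70.6 ± 6.25), hmox1a (65.9 ± 43.8) and gclm (63.4 ± 14.7), which again did not differ beyond their spread. The spread within a group also set the genes apart, since the highest library exceeded the lowest by 9.68 times for hmox1a in the unlesioned group and by 1.22 times for prdx1 in the lesioned group.

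The genes whose log2 CPM over the 8 libraries was most like that of txnb were found among 8061 others with a mean of at least 10 CPM. They were adam9a, a membrane-bound metalloprotease gene (Pearson r = 0.994), tmem242 (0.994), fam136a (0.979), psmd4a, a subunit of the proteasome (0.975), and pfdn4, a subunit of the prefoldin chaperone (0.974). Without and with the lesion adam9a averaged 7.85 and 22.0 CPM, and pfdn4 57.5 and 113 CPM. The 8 points share their group difference and their TMM scaling, and the r values are descriptions. With each group's mean subtracted, the 5 genes most like txnb were others, tcf25 (0.976), gpx1a, a glutathione peroxidase gene (0.975), ube2l3a (0.973), uba3 (0.972) and wnk1a (0.967). Over all 8 libraries gclm had r = -0.87 with txnb, and with the group means subtracted r = -0.77, the lowest among the other 8 genes both times.

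The genes on either side of txnb were looked at for a difference of the whole locus. The nearest tested gene on its lower side is svep1, an extracellular matrix gene on the opposite strand that ends at 24357169. Its mean levels were 35.2 CPM without and 34.03 CPM with the lesion (log2 fold change -0.05, adjusted p = 0.985 in edgeR). On the other side ptgr1.1, a prostaglandin reductase gene, had 58.1 and 66.6 CPM (log2 fold change 0.20, adjusted p = 0.826 in edgeR). Next to these, slc7a8a had 73.7 and 51.2 CPM (adjusted p = 0.796 in edgeR) and haus3 10.99 and 14.2 CPM (adjusted p = 0.872 in edgeR). Farther out, nedd8 had 35.6 and 48.2 CPM (adjusted p = 0.645 in edgeR). The low-level gene poln, which overlaps haus3, had 0.524 and 2.18 CPM (log2 fold change 2.04, adjusted p = 0.663 in edgeR).

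The wider redox pathway was read from 12 lists of genes chosen for their function, with earlier results of these data known. Of 183 listed genes with a match in the table, 153 passed the filter, of which 144 are not among the 9. Of these 144 genes, 0 were called higher and 0 lower in edgeR with Benjamini-Hochberg adjustment over all genes. At an unadjusted p under 0.05, 7 were higher (4.86%, against 6.07% of all genes) and 13 lower (9.03%, against 5.48%). In limma voom 0 were called, and in DESeq2 6 were called higher and 2 lower, 3.80% and 1.27% of the 158 with an adjusted p there, against 2.2% and 1.47% of all genes. Every lesioned library exceeded every unlesioned one for 6 of the 144 (4.17%, against 5.32% of all genes) and lay below each for 7 (4.86%, against 3.91%). The log2 fold change was positive for 63 and negative for 81, with a median of -0.10 beside -0.04 over all genes. Where library size alone scaled the counts, 80 were positive and 64 negative, as the median of all genes moved to 0.12.

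In the thioredoxin system list, 0 of the 12 tested genes other than txnb were called in edgeR, 8 had a positive log2 fold change and their median was 0.29. The paralog txna, with a log2 fold change of 0.51, was not in the lists. It is counted neither among the 12 nor among the 144 genes. At an unadjusted p under 0.05, 2 of the 12 were higher and 0 lower, against 6.07% and 5.48% of all genes. The gene txnl1, a thioredoxin-like protein bound to the proteasome, had 122 ± 27.5 and 184 ± 19.3 CPM, given here and in what follows as unlesioned before lesioned (log2 fold change 0.60 ± 0.22, adjusted p = 0.311 in edgeR), and its groups did not overlap. Named after their values were seen, txnrd3, a thioredoxin reductase gene, had 107 ± 21.5 and 122 ± 12.3 CPM (log2 fold change 0.19, adjusted p = 0.811 in edgeR), and the mitochondrial thioredoxin gene txn2 had 15.7 ± 9.0 and 31.3 ± 11.3 CPM (log2 fold change 0.99, adjusted p = 0.482 in edgeR). Peroxiredoxins and sulfiredoxin had 0 of 7 called and a median of -0.12. The most abundant of them per kilobase, prdx2, had 343 ± 12.1 and 366 ± 27.7 CPM (adjusted p = 0.904 in edgeR), and prdx5 135 ± 4.20 and 118 ± 13.0 CPM (adjusted p = 0.754 in edgeR).

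In the glutathione synthesis and glutaredoxin list 0 of 16 genes were called in edgeR, with 6 positive and a median of -0.13. Among them glrx3, a glutaredoxin that handles iron-sulfur clusters, had 22.1 ± 8.66 and 43.3 ± 4.23 CPM (log2 fold change 0.97 ± 0.34, adjusted p = 0.290 in edgeR). The transporter subunit gene slc3a2b, which pairs with light chains that import amino acids, had 317 ± 145 and 270 ± 130 CPM (adjusted p = 0.897 in edgeR). Of the 22 glutathione peroxidases and transferases 0 were called in edgeR, 16 were negative and the median was -0.19. The membrane transferase gene mgst3b had 338 ± 56.5 and 232 ± 24.6 CPM (log2 fold change -0.54 ± 0.20, adjusted p = 0.320 in edgeR). The peroxidase of the endoplasmic reticulum gpx7 had 18.7 ± 8.06 and 36.3 ± 12.6 CPM (log2 fold change 0.96 ± 0.39, adjusted p = 0.366 in edgeR). The most abundant transferase gene per kilobase, gstp1.2, had 334 ± 153 and 255 ± 104 CPM (adjusted p = 0.777 in edgeR).

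The list of enzymes that remove superoxide and peroxide directly or repair oxidized methionine also holds sestrins. It had the lowest median of the 12 lists, -0.55, with 0 of 9 called in edgeR and 6 negative. In 3 of the 9 the lesioned libraries lay below all unlesioned ones, as they did for 3.91% of all genes. One was msrb3, a methionine sulfoxide reductase gene, with 63.6 ± 14.6 and 32.1 ± 5.21 CPM (log2 fold change -0.99 ± 0.25, adjusted p = 0.183 in edgeR and 0.0138 in DESeq2). Another was the catalase gene cat, with 46.8 ± 3.59 and 30.2 ± 3.81 CPM (log2 fold change -0.63 ± 0.22, adjusted p = 0.279 in edgeR and 0.0371 in DESeq2). The third, msraa, named after its values were seen, had 23.7 and 13.3 CPM (adjusted p = 0.401 in edgeR). The superoxide dismutase gene sod1, which shares 21.0% of its exon bases with scaf4a, had 74.6 ± 9.20 and 62.5 ± 10.5 CPM (adjusted p = 0.730 in edgeR).

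The list of Nrf2 and its regulators had 0 of 15 called in edgeR and a median of 0.02. Named after their values were seen, the Nrf2 genes nfe2l2a and nfe2l2b had 200 ± 78.6 and 183 ± 43.2 CPM, and 20.6 ± 20.9 and 24.7 ± 24.8 CPM (adjusted p = 0.935 and 0.952 in edgeR). The Keap1 genes keap1a and keap1b had 8.03 and 7.40 CPM, and 8.62 and 8.75 CPM (adjusted p = 0.974 and 0.997 in edgeR). RNA levels do not measure the amount or activity of Nrf2 protein. The ubiquitin ligase subunit gene rbx1, which serves many cullin ligases besides that of Keap1, had 90.2 ± 9.57 and 143 ± 12.4 CPM (log2 fold change 0.66 ± 0.19, adjusted p = 0.216 in edgeR and 0.00788 in DESeq2). The small Maf gene mafk, a partner of Nrf2 on DNA, had 39.7 ± 26.2 and 17.0 ± 10.2 CPM (log2 fold change -1.22 ± 0.58, adjusted p = 0.459 in edgeR).

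Quinone and carbonyl detoxification had 0 of 15 called in edgeR and a median of 0.19, with cbr1l at 105 ± 24.4 and 91.8 ± 22.5 CPM (adjusted p = 0.852 in edgeR) and the epoxide hydrolase gene ephx1 at 17.3 ± 7.60 and 11.8 ± 3.47 CPM (adjusted p = 0.684 in edgeR). Haem breakdown and iron storage had 0 of 17 called, 15 negative values and a median of -0.24. In this list ncoa4, whose product delivers ferritin to autophagy, had 86.6 ± 11.2 and 60.2 ± 4.99 CPM (log2 fold change -0.53 ± 0.19, adjusted p = 0.320 in edgeR). The iron exporter gene slc40a1 had 68.0 ± 16.6 and 38.1 ± 15.1 CPM (log2 fold change -0.84 ± 0.33, adjusted p = 0.351 in edgeR). The ferritin gene fthl27 had 1385 ± 452 and 1172 ± 426 CPM (adjusted p = 0.851 in edgeR).

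Enzymes that supply NADPH had 0 of 13 called in edgeR, 7 positive and a median of 0.12. The transaldolase gene taldo1, of the pentose phosphate pathway, had 65.9 ± 3.48 and 109 ± 20.9 CPM (log2 fold change 0.72 ± 0.21, adjusted p = 0.228 in edgeR and 0.0344 in DESeq2). The malic enzyme gene me1 had 0 counts in all unlesioned libraries and 1.28, 1.93, 1.99 and 1.47 CPM in lesioned 1 to 4. Against a floor of 3 counts over the unlesioned group (0.0361 CPM) it was at least 46.1-fold higher (adjusted p = 0.153 in edgeR and 7.15e-06 in DESeq2). The mitochondrial isocitrate dehydrogenase gene idh2, the most abundant of the list per kilobase, had 241 ± 42.5 and 274 ± 46.9 CPM (adjusted p = 0.8289 in edgeR).

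Autophagy receptors and LC3 genes, the list that holds sqstm1, had 0 of 16 called in edgeR, 12 negative values and a median of -0.49. At an unadjusted p under 0.05, 0 of the 16 were higher and 5 lower, against 6.07% and 5.48% of all genes. The receptor gene calcoco1a had 65.5 ± 27.2 and 28.8 ± 9.76 CPM (log2 fold change -1.19 ± 0.38, adjusted p = 0.249 in edgeR), and the LC3 relatives gabarapl2 58.6 ± 12.4 and 34.7 ± 8.49 CPM (adjusted p = 0.279 in edgeR) and gabarapb 581 ± 138 and 372 ± 108 CPM (adjusted p = 0.373 in edgeR). The exons of gabarapl2 share 17.4% of their bases with tmem231. NADPH oxidase genes, whose products make superoxide, had 0 of 8 called and a median of 0.31. Their levels were low, with the shared subunit gene cyba at 13.5 ± 5.27 and 14.6 ± 5.88 CPM (adjusted p = 0.966 in edgeR), cybb at 1.13 and 4.15 CPM and nox1 at 1.2 and 0.387 CPM. In the metal response list 0 of 2 tested genes were called, with slc30a1a, a zinc exporter gene, at 47.9 ± 25.2 and 47.8 ± 12.4 CPM and mtf1 at 0.245 and 0.692 CPM (adjusted p = 0.999 and 0.683 in edgeR).

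**Figure D4:**
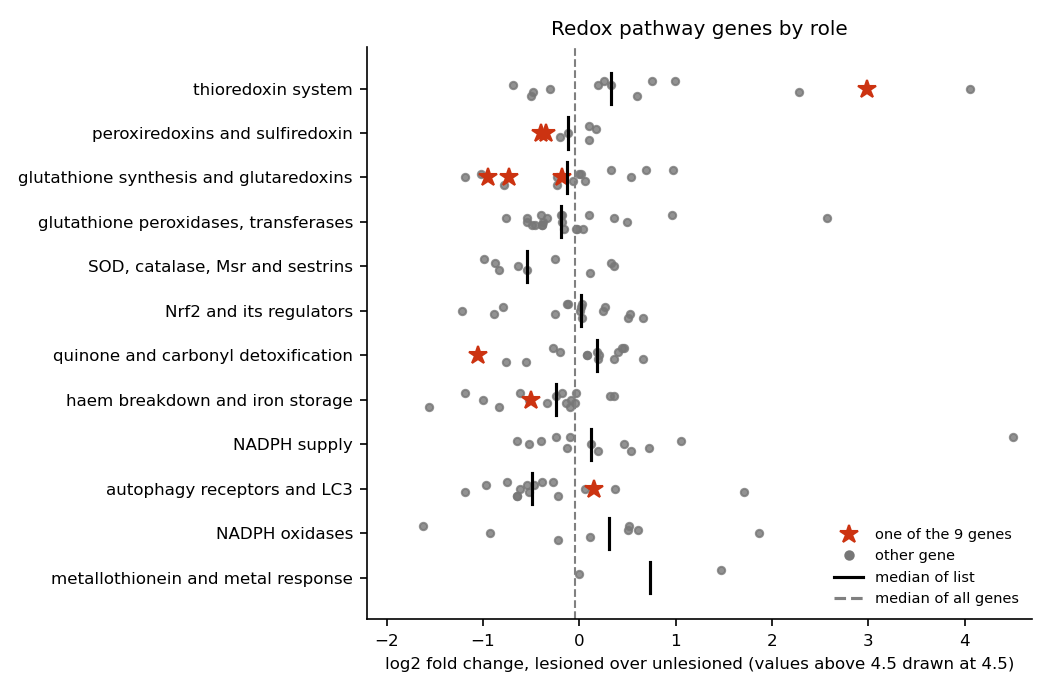
Log2 fold change of lesioned over unlesioned (horizontal axis, with values above 4.5 drawn at that limit) of the tested redox pathway genes, 1 row per list, with the 9 redox defence genes as stars, other genes as grey points, list medians as black bars and the median of all genes, -0.04, as a dashed line. List medians lie between -0.55 and 0.73, and txnb stands apart from most genes of the thioredoxin list.

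DESeq2 also called 3 genes of low level that were named after their values were seen. In edgeR 0 of the 153 redox pathway genes tested were called. Of the 3 genes, an edgeR value is given for tmx2a only. At an unadjusted p under 0.05 in edgeR, 7 of the 144 genes outside the 9 were higher. Neither slc7a11 nor abcc2 was among those 7, and whether they passed the edgeR filter is not given. Levels are group means, given without their spread among libraries. The cystine importer gene slc7a11, which feeds glutathione synthesis, had 0.206 and 3.13 CPM (adjusted p = 0.0187 in DESeq2). The membrane thioredoxin relative tmx2a had 0.359 and 6.02 CPM (adjusted p = 0.04995 in DESeq2 and 0.317 in edgeR), and the efflux pump gene abcc2 had 0.0369 and 1.95 CPM (adjusted p = 0.00790 in DESeq2). The number of genes with at least 1 count was also higher in every lesioned library, and its part in these low values was not tested.

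The libraries also held RNA of other cell types, as read from their markers. Macrophage and neutrophil markers summed to 0.00125% to 0.0198% of counts in unlesioned and 0.00253% to 0.0141% in lesioned libraries, and 4 of the 12 passed the filter. Of these 4, 1 had a positive and 3 a negative log2 fold change. The macrophage gene mpeg1.1, which did not pass, had 0 CPM in unlesioned 1 to 3, 3.38 CPM in unlesioned 4 and 24.2 CPM in lesioned 4. It was at most 0.943 CPM in the other lesioned libraries. Another marker that did not pass, lyz, had 0, 0.157, 0 and 57.8 CPM in unlesioned 1 to 4, and 0 CPM in lesioned 1 to 4. The part of these cells in the levels of txnb and the other genes was not tested. Epidermal markers took 0.0896% to 0.516% and 0.183% to 0.439%, with krt4 at up to 2147 CPM in unlesioned 4 and 1958 CPM in lesioned 4, and a median log2 fold change of 0.01. Skeletal muscle markers took 0.111% to 0.352% and 0.0759% to 0.478%, and the log2 fold change was positive for 7 of the 9, with 1.74 as the median. The muscle actin gene actc1b had 163 to 646 CPM in unlesioned libraries and 716, 124, 2805 and 1661 CPM in lesioned 1 to 4 (adjusted p = 0.429 in edgeR). The myosin light chain gene mylpfa had 22.4 to 116 CPM in unlesioned libraries and 7.49, 11.03, 573 and 290 CPM in lesioned 1 to 4 (adjusted p = 0.590 in edgeR). These muscle genes were thus highest in lesioned 3 and 4. The 2 muscle genes with a negative log2 fold change were acta1a and acta1b. The groups overlapped for acta1a, at 555 to 1918 and 331 to 772 CPM (adjusted p = 0.258 in edgeR). They did not overlap for acta1b, at 509 to 1024 and 183 to 464 CPM (adjusted p = 0.238 in edgeR), where 3.91% of all genes were lower without overlap. The part of muscle RNA in the levels of txnb and of the other genes was not tested. Erythroid markers summed to 0.000487% to 0.000926% in unlesioned and 0.00024% to 0.00048% in lesioned libraries (exact two-sided permutation p = 0.0286, adjusted p = 0.143), with hbbe3 at 0 in all, and their part in the values above was not tested. Glial, neuronal and endothelial markers each stayed at or below 0.0242% of counts in every library. Of the 8 tested endothelial markers, 5 had a negative and 3 a positive log2 fold change. Among them egfl7, named after its values were seen, had 17.4 to 27.4 and 3.83 to 7.59 CPM (adjusted p = 0.136 in edgeR). Of the 5 tested glial markers, 4 were negative and 1 positive, with a median of -3.54. The glial gene gfap had 0.137, 134, 20.4 and 0.141 CPM in unlesioned 1 to 4, and 2.34, 1.11, 0.181 and 0.432 CPM in lesioned 1 to 4. Its higher unlesioned mean thus came from unlesioned 2 and 3, and the groups overlapped. The part of these cells in the values above was not tested.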

How the data were processed

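The authors deposited raw read counts per gene for 8 libraries, with no normalization, and the exon coordinates and length of each gene. Per the submitters' processing notes, reads were aligned with GSNAP 2018-07-04 to GRCz11, and featureCounts 1.6.2 made the counts. Per the file headers the version was 1.6.3, with Ensembl release 92, a minimum mapping quality of 1 and counting without strand. The table has no symbols: of 31901 identifiers, 16585 were given a zebrafish symbol by the reference table, and 11025 got theirs by matching up to 15 neighbours per side to the zebrafish RefSeq order (assembly GRCz12tu, used for names only). Of the 9 genes, 2 were matched directly and 7 by neighbours, as was txna. Among 2477 paralogs of known symbol, neighbours returned 2413 correctly and 7 wrongly.

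Spike-in entries were left out. The groups were compared with edgeR 4.0.16 (R 4.3.3), using TMM factors, filterByExpr and a robust quasi-likelihood F-test, two-sided, with Benjamini-Hochberg adjustment over all genes tested and a threshold of 0.05. DESeq2 1.42.0 and limma 3.58.1 voom were alternatives. Library measures were compared by exact two-sided permutation over 70 arrangements. Groups do not overlap where all lesioned libraries lie on one side of all unlesioned ones.

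The 9 genes and the pathway lists were chosen with earlier results of these data known. Named are the 9 genes, pdgfrb and, per list, the 2 genes of lowest p and the most abundant one per kilobase. The genes of lowest p are thus chosen by their values. Genes most like txnb were taken by rank, and its neighbours by position. Cell type markers given as examples were picked from their lists after their values were seen, also where this is not said. Other genes are said to be chosen after their values were seen. Of the listed pathway symbols some could not be matched, among them hmox1b and mt2, which are not analysed here. Deviations from group means correlated at 0.192, 0.182, 0.232 and 0.154 between libraries of the same number, each above the limit of 0.1. A fit with the replicate number as a term was therefore made beside the main edgeR fit. The main fit, which gave the edgeR values above, has no term for pairing. The labels state no pairing, so it rests on the data alone. Lesioned 1 with unlesioned 2 gave 0.199 and lesioned 2 with unlesioned 1 gave 0.182, so pairs within libraries 1 and 2 could not be told apart. Counts carry no molecular identifiers, so the floor of 3 counts covers counting error only.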

Additional observations from a re-analysis of the deposited data

Results flagged for a closer look

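In 80 combinations of a named gene and a group of 4 libraries, 5 had 1 library far from the other 3, and chance gives about 1 in 20. For sqstm1, lesioned 3 had 183 CPM, while the other lesioned libraries had 49.0 to 54.3 CPM. For gstp1.2, unlesioned 3 had 561 CPM, against 230 to 275 CPM in the others. For ncoa4, unlesioned 1 had 103 CPM, against 79.7 to 83.3 CPM. For taldo1, lesioned 3 had 77.7 CPM, against 117 to 123 CPM, and it still lay above the highest unlesioned library (69.4 CPM). For mtf1, unlesioned 1 had 0.684 CPM, against 0.0470 to 0.144 CPM. Of the 5, 3 come from library 3 of either group.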

How the results depend on the processing

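The log2 fold change of txnb lay between 2.66 and 3.37 in 18 alternatives, and those of gclc, gclm, nqo1, prdx1 and srxn1 were negative in all 18, with prdx1 at -0.02 in libraries 3 and 4 alone. Signs turned in some alternatives for hmox1a (positive in 2 of 18, up to 0.35), sqstm1 (negative in 2 of 18, down to -0.56) and gsr (0.06 without unlesioned 3). Of the 9 genes, 1 (txnb) was called with DESeq2, limma voom, library size only, no filter on low counts, a term for libraries 1 and 2 against 3 and 4, and libraries 1 and 2 alone, and 0 to 1 with a library left out (1 without unlesioned 3). Of all redox pathway genes, 7 were called higher and 2 lower in DESeq2, and in the other settings just named the only call was txnb (0 to 1 with a library left out). Without the 9 genes they were 6 and 2 in DESeq2 and 0 in all other settings. The contrast chose txnb, so nothing is read from its calls. Over the whole table the genes called higher and lower were 406 and 272 with DESeq2, 5 and 1 without a filter, 7 and 7 with the term for libraries 1 and 2 against 3 and 4, 5 and 1 in libraries 1 and 2, 0 and 0 in libraries 3 and 4, and 3 to 7 and 0 to 1 with a library left out. The cause of these shifts was not tested. With the replicate block, that is, the replicate number as a term, txnb had a log2 fold change of 3.001, 0 of the 9 genes were called, 2 genes were called higher and 0 lower over the whole table, and the median of the 9 genes was -0.31. The block changed no call among the redox genes.

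Among named genes that were not called, slc30a1a turned from -0.0049 to positive values with limma voom (0.14), library size only (0.14), no filter (0.026), the replicate block (0.12), the term for libraries 1 and 2 against 3 and 4 (0.11) and libraries 3 and 4 alone (0.52), and with a library left out ranged from -0.25 to 0.32. In libraries 1 and 2 alone nox1 turned to 4.56. In libraries 3 and 4 alone prdx5 turned to 0.017 and cbr1l to 0.23. With a library left out, cyba ranged from -0.085 to 0.38, slc3a2b from -0.62 to 0.11 and fthl27 from -0.51 to 0.0091. With the stricter filter mtf1 and nox1 were not tested. At these depths srxn1, with 8 to 57 reads per library, is the least precise of the 9 genes.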
